A study of Homo sapiens with 5 samples.

Results

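The genes of the mitochondrial ribosomal proteins were examined for peaks of FOXO3A CUT&Tag in 2 human leukemia cell lines, THP-1 and U-937. The genes were chosen by symbol: every protein-coding gene of the RefSeq table for hg38 named MRPL or MRPS followed by a number and, where present, a letter. This gave 77 of 19866 protein-coding genes, 49 with MRPL symbols (named for the large subunit) and 28 with MRPS symbols (the small subunit). They lay on 21 chromosomes and none on X or Y. A gene was said to have a peak where a peak summit lay within 1000 bp of its start or its end, here called a boundary peak.

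Mitochondria carry their own ribosome, which translates the few proteins encoded by mitochondrial DNA, all of them core subunits of the respiratory chain and the ATP synthase. Its RNAs come from mitochondrial DNA, whereas every one of its proteins is encoded in the nucleus, made in the cytosol and imported. Many of these proteins descend from bacterial ribosomal proteins, and others were added in the mitochondrial lineage. FOXO3A is a forkhead transcription factor that AKT signalling keeps in the cytoplasm, and FOXO factors are known for effects on metabolic and stress genes. In myeloid leukemia cells mitochondrial translation is of interest because many such cells lean on respiration.

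The stated purpose of the experiment was to find genes that FOXO3A binds directly. CUT&Tag uses an antibody, here against FOXO3A, to bring a transposase to chromatin, so that DNA close to the antibody's target is cut and tagged for sequencing. THP-1 and U-937 are established lines with monocytic features that the labels class as acute myeloid leukemia cells, both grown in RPMI1640 medium with serum. No treatment, genotype change or time point is named, and no control library was used here. The libraries numbered 3 for THP-1 and 2 for U-937. Peaks were present in 1 library of each line, with 1282 peaks in THP-1 replicate 1 and 2272 in U-937 replicate 1, and the deposited lists of the other 3 libraries held 0 peaks. On chromosomes lay 1037 of the THP-1 peaks and all 2272 of the U-937 peaks, and only these were joined to genes. With peaks in 1 library of each line, every value below describes a single library without a replicate check. No test between the lines was possible. Read depth is unknown, and intervals cover counting error alone. The fold enrichment of a peak is the authors' value, a ratio on a linear scale whose background the sources used here do not name, and is compared within a list.

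In U-937, 8 of the 77 genes had a boundary peak. They were MRPL54, MRPS18B, MRPL11, MRPS12, MRPL50, MRPL1, MRPS16 and MRPS31. For 4 of them the peak covered more than 125 of the 250 bases before the gene start. These bases, most of them under the peaks, are shown. They run 5′ to 3′ along the gene and end at the base before its start, from the RefSeq promoter table (GRCh38.p14, the assembly called hg38). Capitals mark matches to the motifs described further on, and some of these matches lie outside the peaks. The summits at MRPL54 and MRPS18B lie outside the printed bases. The MRPL54 stretch is chr19:3762432-3762681 on the plus strand, with 169 of 250 bases under the peak. The MRPS18B stretch is chr6:30617590-30617839 on the plus strand, with all 250 bases under the peak. The MRPL11 stretch is chr11:66438849-66439098 on the minus strand, with 206 of 250 bases under the peak. The MRPL50 stretch is chr9:101398619-101398850 on the minus strand, the whole gap of 232 bases to the neighbouring gene ZNF189, with 148 under the peak.
MRPL54: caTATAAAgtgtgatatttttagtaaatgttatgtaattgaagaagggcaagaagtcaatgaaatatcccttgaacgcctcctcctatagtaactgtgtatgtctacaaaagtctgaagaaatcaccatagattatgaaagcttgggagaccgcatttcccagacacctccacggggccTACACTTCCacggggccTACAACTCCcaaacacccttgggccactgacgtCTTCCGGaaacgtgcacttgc
MRPS18B: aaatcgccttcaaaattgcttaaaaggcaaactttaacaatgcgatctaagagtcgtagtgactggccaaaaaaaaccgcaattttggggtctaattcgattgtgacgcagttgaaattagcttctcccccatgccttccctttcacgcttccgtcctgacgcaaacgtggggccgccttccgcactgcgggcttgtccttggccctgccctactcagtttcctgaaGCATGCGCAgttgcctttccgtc
MRPL11: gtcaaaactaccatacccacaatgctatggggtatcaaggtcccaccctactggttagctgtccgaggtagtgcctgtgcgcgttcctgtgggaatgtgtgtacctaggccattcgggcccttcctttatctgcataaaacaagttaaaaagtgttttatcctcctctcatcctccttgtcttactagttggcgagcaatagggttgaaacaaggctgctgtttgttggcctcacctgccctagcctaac
MRPL50: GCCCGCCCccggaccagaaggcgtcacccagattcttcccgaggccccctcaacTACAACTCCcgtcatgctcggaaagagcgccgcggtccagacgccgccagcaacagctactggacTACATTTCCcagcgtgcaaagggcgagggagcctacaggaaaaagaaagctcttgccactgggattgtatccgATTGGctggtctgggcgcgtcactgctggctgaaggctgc
The stretches differed in base composition. G and C made up 44.8% of the MRPL54 bases, 50.4% in MRPS18B, 49.2% in MRPL11 and 61.6% in MRPL50. The MRPL54 stretch holds paired TACA elements (TACANNTCC) followed by an inverted ETS core (CTTCCGG). The MRPL50 stretch holds TACA elements of the same kind and an inverted CCAAT box (ATTGG). The MRPL11 stretch matched none of the motifs searched. For forkhead factors these were the exact letters GTAAACA and CAAAACA, and variants of them were not searched.

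The 8 genes amounted to 10.4% of the mitochondrial ribosomal protein genes (exact, Clopper-Pearson, 95% interval 4.59 to 19.4%). Among all other protein-coding genes, 1387 of 19789 had a U-937 boundary peak (7.01%, 6.66 to 7.37), and over all protein-coding genes the share was 7.02%. The share of the other genes lay inside the interval of the mitochondrial ribosomal genes, so the counts do not set these genes apart from the background. The remaining 69 genes had no boundary peak in U-937. In THP-1 the count was 0 of 77 (exact upper bound 4.68%). The THP-1 share over all protein-coding genes was itself 0.221%, with 44 genes among the others, and at that rate a count of 0 among 77 genes is no result about these genes. The difference between the lines was not tested.

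Of the 8 peaks, 4 had a −log10 q (the peak caller's adjusted significance) of at least 5. These were the peaks of MRPL54, MRPS18B, MRPL11 and MRPS12, or 5.19% of the 77 genes (1.43 to 12.8), against 3.93% of all protein-coding genes at that threshold. At both thresholds the background share lay inside the interval of the mitochondrial ribosomal genes. With a window of 3000 bp MRPL20 was added, giving 9 of 77 (11.7%, 5.49 to 21.0) beside 8.22% of all protein-coding genes. When each peak was assigned only to the gene with the nearest boundary, MRPS12 and MRPL50 lost theirs to their neighbours, which left 6 of 77 (7.79%) beside 5.60% of the others.

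**Figure D1:**
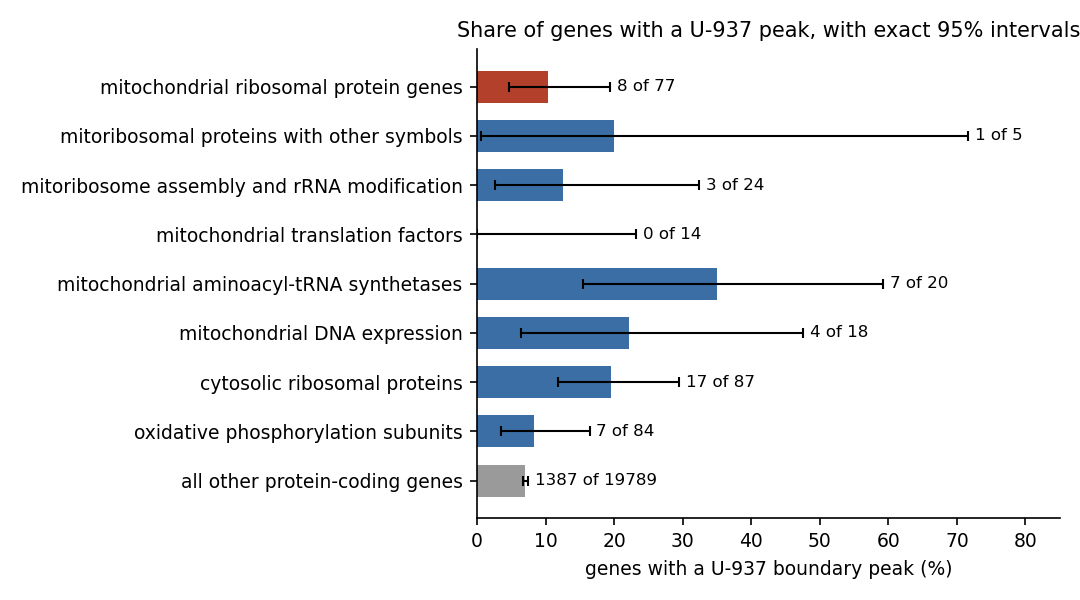
Share of genes with a U-937 boundary peak (horizontal axis, percent) in the mitochondrial ribosomal protein genes (red), related gene groups (blue) and all other protein-coding genes (grey), in 1 library. Bars are shares, lines are exact 95% intervals and labels give counts; the interval of the 8 of 77 mitochondrial ribosomal protein genes spans the 7.01% of the other genes.

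Genes of both symbol series were represented. Those with MRPL symbols had 4 of 49 with a peak (8.16%, 2.27 to 19.6), namely MRPL54, MRPL11, MRPL50 and MRPL1. Those with MRPS symbols had 4 of 28 (14.3%, 4.03 to 32.7), namely MRPS18B, MRPS12, MRPS16 and MRPS31. The intervals of the 2 series overlapped over most of their length. The split follows the symbols alone, and the subunit that holds each protein was not checked.

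By systematic name both classes were represented as well. Among proteins whose systematic name marks a bacterial counterpart, 4 of 44 genes had a peak (9.09%, 2.53 to 21.7), those of MRPL1, MRPL11, MRPS12 and MRPS16. Among proteins named as particular to mitochondria, 4 of 31 had a peak (12.9%, 3.63 to 29.8), those of MRPL54, MRPL50, MRPS18B and MRPS31. Both intervals contained the 7.02% of all protein-coding genes. The systematic name and ancestry differ for MRPS18B, which is related to bacterial S18 but carries a mitochondrial name. For 2 genes no such name was given, and neither had a peak.

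MRPL54 (gene 116541, chromosome 19, 3762682 to 3767565, plus strand), which encodes a large-subunit protein without a bacterial counterpart, had the strongest of the 8 peaks. U-937 replicate 1 gave a fold enrichment of 11.4 and a −log10 q of 14.6 there, the nearest THP-1 summit lay 273 kb away, and the other 3 libraries had no peaks at all. The peak spanned 383 bp (chr19:3762513-3762895) and its summit lay 18 bp inside the gene. It ranked 52 of 2272 by fold enrichment in the list, and 35 among the 1110 peaks at protein-coding gene boundaries. The lncRNA LOC105372248 starts on the opposite strand 42 bp before MRPL54, and its start was 60 bp from the summit. APBA3 also starts on that strand, 990 bp away, and lay 1008 bp from the summit, just outside the window. The peak cannot be assigned to 1 of these transcripts from the list.

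MRPS18B (gene 28973, chromosome 6, 30617840 to 30626392, plus strand) encodes a small-subunit protein related to bacterial S18 and named as particular to mitochondria. Its peak was the widest of the 8, at 701 bp (chr6:30617343-30618043), with a fold enrichment of 7.84 and a −log10 q of 7.45, rank 519 of 2272. The summit lay 266 bp before the start. PPP1R10, which encodes a nuclear regulator of protein phosphatase 1, starts in the opposite direction 597 bp away, and its start was 331 bp from the same summit. The summit thus lay between divergent genes, while the peak covered the whole stretch printed for MRPS18B and ran 203 bp into the gene.

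MRPL11 (gene 65003, chromosome 11, 66435075 to 66438848, minus strand) encodes the counterpart of bacterial L11, at the base of the stalk where translation factors dock. Its peak of 215 bp (chr11:66438840-66439054) had a fold enrichment of 7.27 and a −log10 q of 6.38, rank 686 of 2272. The summit lay 56 bp before the start, and no other gene boundary lay within 1000 bp of it. Of the 4 peaks that met the stricter q threshold, it was the one with no neighbouring gene in reach of its summit.

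MRPS12 (gene 6183, chromosome 19, 38930944 to 38933168, plus strand) encodes the counterpart of bacterial S12, a protein of the decoding centre. The fold enrichment was 6.78 and the −log10 q 5.61, rank 866 of 2272, in a peak of 243 bp (chr19:38930501-38930743). SARS2, the mitochondrial seryl-tRNA synthetase, starts 181 bp away in the opposite direction. The summit lay 216 bp inside SARS2 and 397 bp before the start of MRPS12, the longest offset of the 8. The whole peak lay within the SARS2 span. Both genes serve mitochondrial translation, and the peak is counted for each of them.

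MRPL50 (gene 54534, chromosome 9, 101387633 to 101398618, minus strand), for a large-subunit protein particular to mitochondria, shares its upstream gap with ZNF189, a zinc finger gene whose start lies 233 bp away on the other strand. The peak (chr9:101398703-101398938, 236 bp) had a fold enrichment of 5.38 and a −log10 q of 4.32, rank 1519 of 2272. Its summit was 141 bp before MRPL50 and 92 bp from ZNF189. The summit therefore lay in the gap between both starts and nearer to ZNF189.

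The other 3 peaks were near the weak end of the list and had summits inside the gene. MRPL1 (gene 65008, chromosome 4, 77862830 to 77952785, plus strand), the counterpart of the L1 protein of the stalk beside the tRNA exit site, had a fold enrichment of 4.33 and a −log10 q of 2.44, with the summit 148 bp inside the gene (chr4:77862877-77863078). MRPS16 (gene 51021, chromosome 10, 73248849 to 73252644, minus strand), the counterpart of bacterial S16, had 4.26 and 2.24, with the summit 109 bp inside (chr10:73252474-73252683). MRPS31 (gene 10240, chromosome 13, 40729128 to 40771190, minus strand), particular to mitochondria, had 3.65 and 1.89, with the summit 183 bp inside (chr13:40770972-40771173). They ranked 1949, 1956 and 2047 of 2272. No start or end of another gene lay within 1000 bp of these summits, although MRPS16 lies within the span of the antisense lncRNA DNAJC9-AS1. The gene table gives no exons, so summits inside genes are not divided into exonic and intronic.

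**Figure D2:**
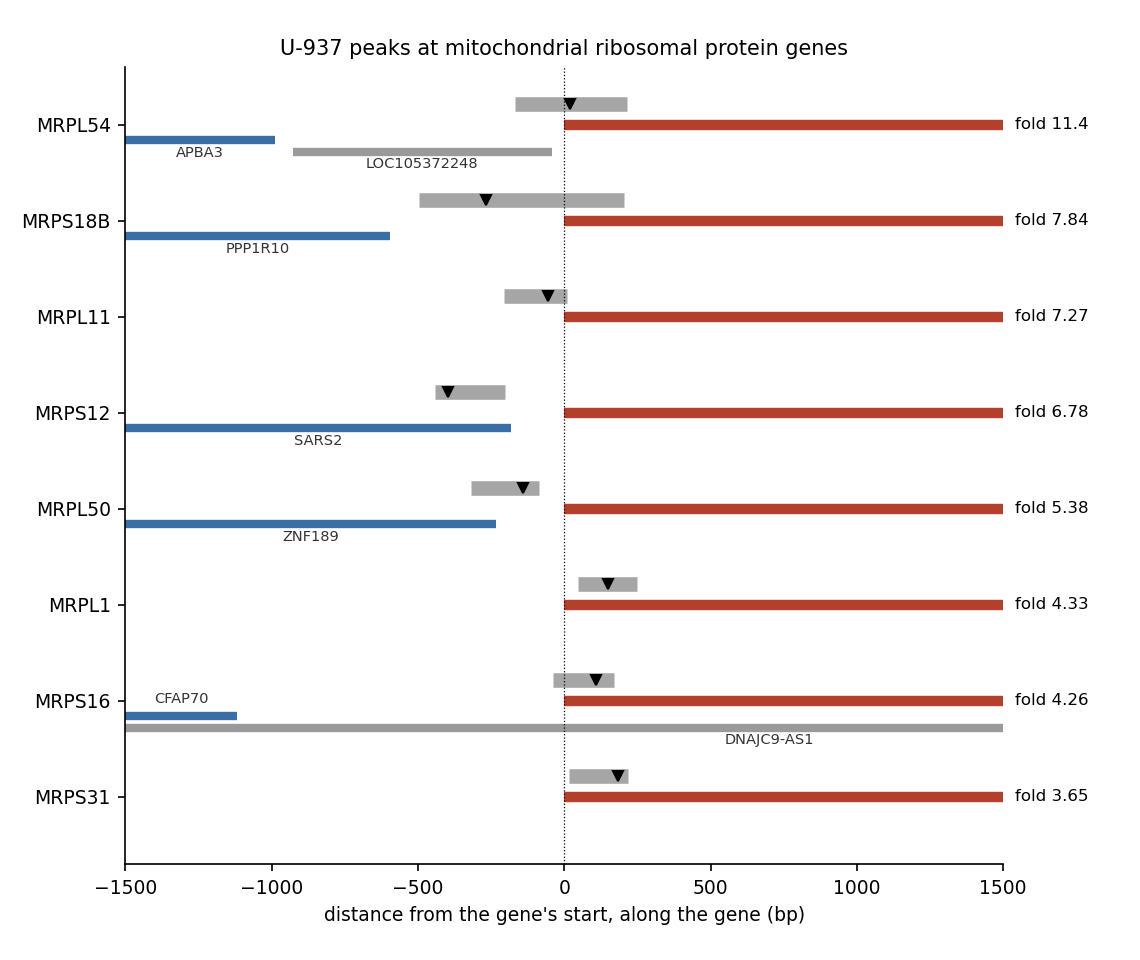
Position of each U-937 peak at a mitochondrial ribosomal protein gene, with distance from the gene start in bp on the horizontal axis and upstream to the left. Red bars are the named genes, blue bars other protein-coding genes, thin grey bars below the genes lncRNA genes, thick grey bars above them the peaks and triangles the summits; the summits fall between 397 bp before and 183 bp after the start.

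All 8 peaks lay at the gene start, and 0 at the end. Among other protein-coding genes of known strand with a boundary peak, 1141 of 1194 (95.6%) had it at the start and 53 at the end alone. The median distance from summit to start was 144 bp, against 187 bp in the others. The summit lay upstream in 4 of the 8 genes (50.0%) and in 70.7% of the others. It lay within 200 bp of the start in 6 of the 8 (75.0%) and in 54.9% of the others. Counted over all listed starts, 8 of the 69 genes of known strand had a peak (11.6%, 5.14 to 21.6), against 7.75% of all protein-coding genes of known strand.

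The 8 peaks were of ordinary strength for peaks at genes. Their median fold enrichment was 6.08. An interval of that median from order statistics, with at least 95% coverage, was their whole range of 3.65 to 11.4 (n = 8 peaks of 1 library, which are not replicates). The 1110 peaks at protein-coding boundaries had a median of 6.59 and the whole list 6.16. Of the 8, 4 were above the list's median. The median −log10 q was 4.96 against 5.38 at all protein-coding boundaries, and the median width 226 bp against 252 bp. Thus the peaks ran from near the top of the list at MRPL54 to rank 2047 of 2272 at MRPS31.

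**Figure D3:**
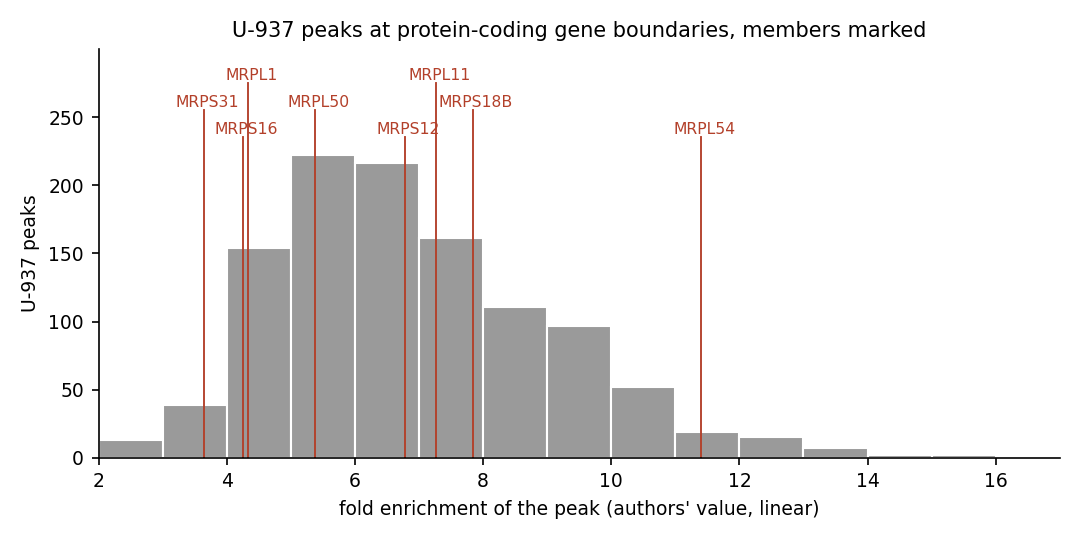
Fold enrichment (horizontal axis, the authors' linear ratio) of the 1110 U-937 peaks at protein-coding gene boundaries, as peaks per unit of fold (grey bars), with the 8 peaks at mitochondrial ribosomal protein genes as red lines. MRPL54 at 11.4 stands in the upper tail, and MRPS31, MRPS16 and MRPL1 lie between 3.65 and 4.33.

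Fold values in the U-937 list were coarse. Over its 2272 peaks there were 529 different values, and 2011 peaks (88.5%) shared theirs with another peak. The value of MRPL50 occurred in 26 peaks, that of MRPS31 in 24 and that of MRPS12 in 20. Ranks among peaks of like strength therefore carry little weight, and tied peaks were given the best rank of the tie. The MRPL54 value occurred in 3 peaks.

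Neighbouring genes were close to many of the mitochondrial ribosomal protein genes. Another gene started or ended within 1000 bp of a boundary in 51 of 77 (66.2%, 54.6 to 76.6), against 44.2% of the other protein-coding genes. With protein-coding neighbours alone it was 42 of 77 (54.5%, 42.8 to 65.9) against 28.4%. Divergent arrangements, with a start on the other strand within 1000 bp of the gene's own start, were present in 29 of the 69 genes of known strand (42.0%, 30.2 to 54.5) and in 24.1% of the others. These genes were also short, with a median span of 8.62 kb against 24.6 kb. Of these 29 genes 4 had a peak, MRPL54, MRPS18B, MRPS12 and MRPL50. Among the pairs without a peak were MRPL46 and MRPS11, both mitochondrial ribosomal protein genes, which start 320 bp apart. MRPL36 and the complex I gene NDUFS6 lie 27 bp apart, MRPL27 and EME1 45 bp, MRPL49 and the cytosolic ribosomal gene FAU 49 bp, and MRPL32 and the proteasome gene PSMA2 202 bp.

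The share of mitochondrial ribosomal protein genes with a peak was similar in size with and without a close neighbour, and each value lay inside the interval of the other. With another gene within 1000 bp, 5 of 51 had a peak (9.80%, 3.26 to 21.4), beside 952 of 8751 other protein-coding genes (10.9%, 10.2 to 11.5). Without one, 3 of 26 had a peak (11.5%, 2.45 to 30.2), beside 435 of 11038 (3.94%, 3.59 to 4.32). The 3 were MRPL11, MRPS16 and MRPS31, of which MRPL11 alone met the stricter q threshold. The neighbour could lie at either end of a gene, and that of MRPL1, among the 5, lay at the end away from its peak. Divergent starts gave 4 of 29 (13.8%, 3.89 to 31.7) beside 14.3% of the other genes with such a neighbour. Genes without a divergent start gave 4 of 40 (10.0%, 2.79 to 23.7) beside 5.44%. In each of these comparisons the share of the other genes lay inside the interval of the mitochondrial ribosomal genes. Counted by peak, 3 of the 8 (37.5%) served more than 1 protein-coding gene, at MRPS18B, MRPS12 and MRPL50, beside 291 of 1110 boundary peaks (26.2%).

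**Figure D4:**
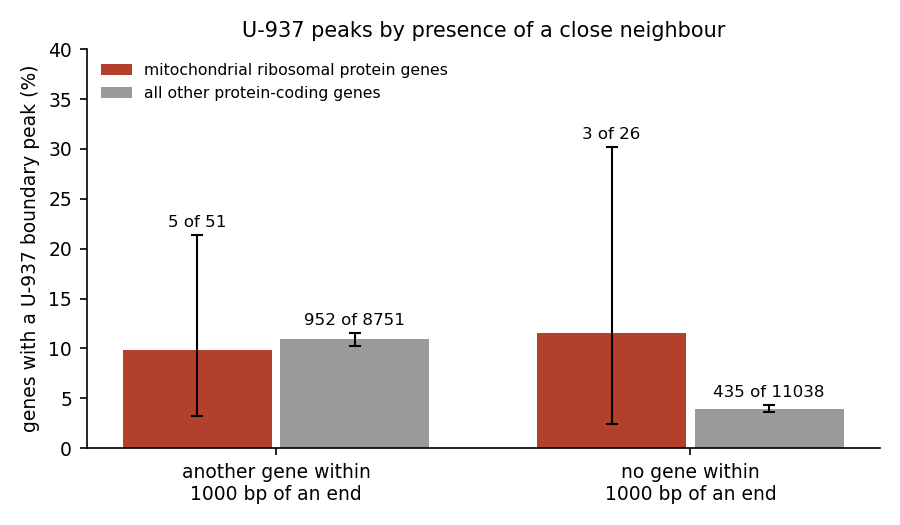
Share of genes with a U-937 boundary peak (vertical axis, percent), split by whether another gene starts or ends within 1000 bp, for mitochondrial ribosomal protein genes (red) and all other protein-coding genes (grey). Lines are exact 95% intervals; the red bars stand at 9.80 and 11.5% with wide intervals, and the grey bars at 10.9 and 3.94%.

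Of the 5 genes just outside the window, 4 had a nearest summit that lay within the window of another protein-coding gene, and MRPL18 did not. The nearest summit was 2351 bp from MRPL20 (peak chr1:1399515-1399709, fold enrichment 5.60), and 223 bp from CCNL2. At MRPL35 it was 3980 bp away (fold enrichment 6.78), 9 bp from a boundary of IMMT, which organises mitochondrial cristae. At MRPL18 it was 7626 bp away (3.59), with PNLDC1 the nearest protein-coding boundary at 6600 bp. The summits nearest MRPS34 and MRPL53 were 9687 and 10523 bp away, beside NUBP2 and TTC31.

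Over longer distances the mitochondrial ribosomal genes lay nearer to U-937 peaks by their median. The median distance from a boundary to the nearest summit was 133 kb, against 227 kb for the other protein-coding genes. Within 10 kb of a summit lay 12 of the 77 (15.6% against 11.3%), and within 100 kb 34 (44.2% against 33.5%). The mitochondrial ribosomal genes also had close neighbours more often and were shorter by their median. Whether either is related to this distance was not tested. In THP-1 the median was 1827 kb against 2390 kb, and 3 of 77 genes (3.90%, against 6.33%) lay within 100 kb of a summit. The closest were MRPL14 at 54.4 kb, MRPS12 at 80.8 kb and MRPL12 at 85.4 kb.

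**Figure D5:**
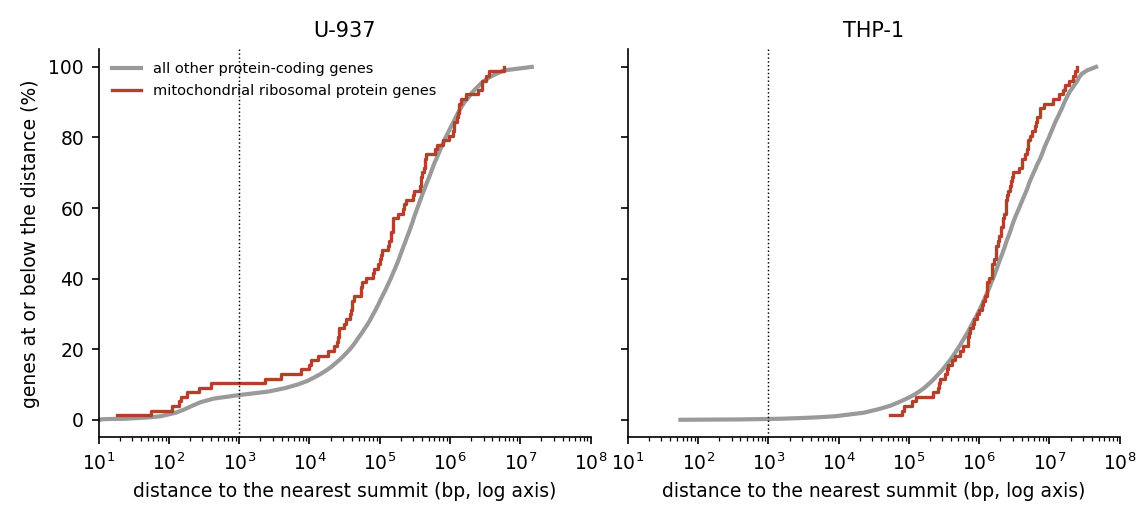
Cumulative share of genes (vertical axis, percent) at or below a given distance from the nearest peak summit (horizontal axis, bp, log axis) in U-937 and THP-1, for mitochondrial ribosomal protein genes (red steps) and all other protein-coding genes (grey); the dotted line marks 1000 bp. The red line is above the grey between 1000 bp and 100 kb in U-937, and starts at 54.4 kb in THP-1.

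Promoter sequence was available for 69 of the 77 genes, as 300 bases each (250 before to 50 after the start). MRPL2, MRPL10, MRPL13, MRPL15, MRPL21, MRPL23, MRPL35 and MRPS28 were not matched. Motifs were searched on both strands and positions are counted from the first base of the gene as 0. The core of the FOXO element, GTAAACA, occurred in 0 of the 69 promoters, in 2.67% of all 15843 protein-coding promoters and in 1.66% of the 1202 whose gene had a U-937 boundary peak. The core of the insulin response element, CAAAACA, occurred in 2 of 69 (2.90%), neither at a gene with a peak, and in 3.72% of all. These letters were thus not in the windows of the 8 genes with a peak, which says nothing of DNA outside the windows. The summits at MRPS18B, MRPS12, MRPL1, MRPS16 and MRPS31 lay outside the windows. Variants of the letters were not searched. At a share of 2.67% over all promoters, 0 of 69 for GTAAACA is no result about these genes.

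Motifs of other factors were present in more of these promoters than in all protein-coding promoters. An ETS core, CCGGAAG, occurred in 29 of 69 (42.0%), against 14.2% of all protein-coding promoters and 19.0% of those with a peak. It was in 4 of the 8 promoters with a peak and 25 of the 61 without (41.0%). The 4 were MRPL54 (from −21 to −15), MRPS12 (−5 to 1), MRPS16 (5 to 11) and MRPS31 (−32 to −26). The sites at MRPL54 and MRPS16 lay under the peak, and those at MRPS12 and MRPS31 lay outside it. A YY1 core, AAGATGGCG, occurred in 13 of 69 (18.8% against 2.69% of all), among them MRPS18B and MRPL50, each from 23 to 31. The site at MRPS18B lay under its peak, and the site at MRPL50 lay outside. An NRF1 core, TGCGCATGC, occurred in 5 of 69 (7.25% against 2.13%) and, among genes with a peak, in MRPS18B at −23 to −15. NRF1 and ETS factors of the GABP type are known regulators of nuclear genes for mitochondria. The ETS core was thus present in a similar share of these promoters with and without a peak, and the NRF1 core in few of either.

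The general promoter motifs were nearer to the background or below it. The GC box, GGGCGG, occurred in 41 of 69 (59.4%, against 58.3% of all and 72.5% of those with a peak), and was in 5 of the 8. It lay under the peak at MRPL50 and MRPS16, and outside it at MRPL1, MRPS12 and MRPS31. CCAAT occurred in 20 of 69 (29.0%, against 36.4% of all and 50.4% of those with a peak), MRPS12 holding it at 4 positions, all outside its peak. TATAAA occurred in 2 of 69 (2.90% against 9.75%), among them MRPL54, where it lay 248 bp upstream, outside the peak. CACGTG occurred in 7 of 69 (10.1% against 8.82%) and TCTCGCGA in 2 (2.90% against 1.75%), all at genes without a peak, and TGACGTCA in 0 (against 2.56%). TACANNTCC, the central part of the THAP11 and ZNF143 element, was searched after the printed sequences had been read. It occurred in 8 of 69 (11.6% against 4.63%), and at 2 positions each in MRPL54 (−71 and −54) and MRPL50 (−178 and −113). The sequences of these 2 genes led to the search, so their matches were known beforehand. Among the 61 promoters without a peak it occurred in 6 (9.84%). Matches of different motifs did not overlap at the 8 genes, while the paired GC boxes of MRPL50 overlapped each other and reach into ZNF189, so that the printed stretch begins within them.

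Promoters of the 8 genes with a peak had a median G and C content of 55.0% (47.3 to 66.0), below the 61.3% of the 61 without a peak. All protein-coding promoters with a U-937 peak had 64.0% and all protein-coding promoters 62.7%. The range of the 8 contained all of these medians.

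Pseudogenes of mitochondrial ribosomal proteins, copies elsewhere in the genome that can share reads with their parents, numbered 106 from 42 parent genes. In both lines 0 of them had a boundary peak or overlapped a peak. The share over all pseudogenes is not given here, so this count is no result about these copies or about shared reads. Among genes with a peak, MRPL50 had 4 such copies, MRPS16 and MRPS31 had 3 each, and MRPL54, MRPS12 and MRPL1 had none.

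Other genes of mitochondrial translation were counted in the same way. Of 5 mitochondrial ribosomal proteins with other symbols, 1 had a U-937 peak, DAP3 of the small subunit. Its fold enrichment was 5.11 and its summit lay 992 bp from a boundary of the gene. Of 24 genes for ribosome assembly and rRNA modification, 3 had a peak (12.5%, 2.66 to 32.4), with fold enrichments of 7.62 at MPV17L2, 4.56 at MRM3 and 3.59 at RPUSD4. Of 14 translation factor genes 0 had a peak (exact upper bound 23.2%). Mitochondrial aminoacyl-tRNA synthetases, which charge the tRNAs, had 7 of 20 (35.0%, 15.4 to 59.2), among them LARS2, which ranked 462 of 2272 by fold enrichment. The shared SARS2 peak had a fold enrichment of 6.78, and CARS2 had 6.03. Genes of mitochondrial DNA expression had 4 of 18 (22.2%, 6.41 to 47.6), with fold enrichments of 9.25 at TFB2M, 7.32 at SUPV3L1, 6.71 at LRPPRC and 3.65 at TEFM.

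The cytosolic ribosome and the respiratory chain gave 2 further points of reference. Cytosolic ribosomal protein genes had 17 of 87 (19.5%, 11.8 to 29.4), with fold enrichments of 8.34 at RPL7, 8.17 at RPL35 and 8.05 at RPS12 among them. Oxidative phosphorylation subunits had 7 of 84 (8.33%, 3.42 to 16.4), led in fold enrichment by NDUFA11 at 13.1, ATP5MC1 at 9.45, COX5B at 7.09 and UQCR11 at 6.66. Beside the 7.02% of all protein-coding genes, the intervals of the synthetases and of the cytosolic ribosomal protein genes lay above that share, and those of the other groups contained it. The interval of the mitochondrial ribosomal genes overlapped those of each of these groups, and no difference between groups was tested. In THP-1 the count was 0 in every one of these groups except oxidative phosphorylation, with NDUFA11 (fold enrichment 4.71, −log10 q 3.41).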

How the data were processed

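FOXO3A CUT&Tag libraries of THP-1 (3) and U-937 (2) were used as deposited peak lists, made per library and not pooled. Bowtie2, Picard and hg38 are named in the submitters' processing notes, without versions or roles. The sources used here do not name the peak caller, its background or the read depth. The lists have no header and were read by the narrowPeak layout. The authors deposited for each peak a fold enrichment (a linear ratio), the −log10 p-value, the −log10 q-value, a score in whole numbers and a summit. In the deposited THP-1 list the score follows the q-value (1281 of 1282 peaks), and in the U-937 list the p-value (2272 of 2272), so the lists were made differently and were not compared by strength.

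Peaks on chromosomes were joined to RefSeq genes. Of 59792 genes, 831 out of chromosomal order were left out. The table gives no strand, which came from the promoter table. Shares have exact (Clopper-Pearson) 95% intervals, which cover counting error alone. No tests were made, as 1 library per line held peaks. Every gene with a peak, its paired neighbour, the 5 genes just outside the window and up to 4 genes per related list are named, and some that this rule names are not reported here. Pairs without a peak, the closest THP-1 distances and the classes by systematic name were chosen after their values were seen. The genes and lists were chosen with earlier results of these data known. The code for peak assignment was checked on simulated peaks planted within the same window. It found 100% of 200 planted genes in each of 5 runs over 19866 genes. This check does not bear on which gene a real peak belongs to. Alternatives covered the window, the q threshold, the boundary, overlap, peak assignment and neighbours. Python 3.11.15, pandas 2.3.3, numpy 2.4.6, scipy 1.17.1 and matplotlib 3.10.9 were used.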

Additional observations from a re-analysis of the deposited data

How the results depend on the processing

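The U-937 share of 10.4% ran from 5.19 to 11.7% over 8 alternatives, each within the exact interval of the main value. At the lower end, the q threshold of 5 left 4 genes in place of 8, while the background fell as well. The THP-1 count stayed at 0 in the same 8 alternatives. The median fold enrichment ran from 5.60 to 7.56 over 3 alternatives. The share of genes with a close neighbour depended on its definition: 66.2% with any gene, 54.5% with protein-coding neighbours and 42.0% with divergent starts alone, a definition added after the data were seen. No paired analysis was possible because 1 library of each line held peaks and replicate numbers do not link the lines. The depth behind the lists is unknown, so what it limits cannot be stated.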
